A study of Danio rerio with 24 samples.

Results

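The genes described here are the heat shock proteins, their DnaJ partners and the immediate early genes of the zebrafish, measured in sorted digestive and other cells. Members were chosen by gene symbol alone: symbols beginning with hspa, hspb, hspd, hspe, dnaja, dnajb or dnajc, or with hsp and a digit. The rule also took the fos, jun, egr1 to egr4, atf3, ier, btg and gadd45 genes. The luminal chaperones of the endoplasmic reticulum (ER) hspa5, hsp90b1, dnajb11 and the dnajc3 genes were left out by the rule. This gave 69 genes of the 8793 on the array that have a probe set with 1 gene symbol, each represented by its probe set of highest mean score over the 24 arrays. Of these 69, 44 carry hsp or dnaj symbols and are called chaperone genes here, and 25 carry immediate early symbols. Some symbols came in by name only: gadd45gip1, a protein of the mitochondrial ribosome, ier3ip1, a protein of the early secretory pathway, and hspbp1, a nucleotide exchange factor of HSP70. No filter on low scores was used, so all 69 were tested. The probe sets for hsp70.1, hsp70l and hsp70.3 together and for hsp90aa1.2 and hsp90aa1.1 together name several genes, so neither represents a member, and their values are given beside those of hsp70.3 and hsp90aa1.2.

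All embryos were homozygous for Tg(XlEef1a1:GFP)s854, a line in which a Xenopus laevis eef1a1 promoter drives green fluorescent protein (GFP) and the digestive organs are bright. Every group had 1-phenyl-2-thiourea from 1 day post fertilization (dpf) to block pigment, was dissociated with trypsin, EDTA, Proteinase K and Collagenase in a tissue grinder, and was sorted into GFP+ and GFP- cells. The 8 groups were the 2 gates at 2, 3, 4 and 6 dpf, with 3 arrays each, and their RNA was amplified before labelling. The labels do not say how many embryos were pooled or whether replicates came from separate clutches, so the p-values may measure technical spread alone. No undissociated embryo is analysed here, and the level in the embryo cannot be told apart from a level induced by dissociation and sorting, which all groups underwent.

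Values are the deposited scores, which are centred on 0 and scaled to an SD (standard deviation) of 1 on every array, counting all 15617 probe sets. One array SD is the unit of every difference, and no fold changes can be given because the log base is not given in the sources used here. Differences are GFP+ minus GFP-, or 6 minus 2 dpf, with the standard error (SE) of a linear model of all 24 arrays after ± (n = 3 arrays per group, 12 per gate), and a gene was called at an adjusted p under 0.05. Scores are listed in the order of replicates 1, 2 and 3. Levels are compared between arrays for 1 probe set, never between genes. Because each array is a bulk sample, fewer cells of a type and less RNA per cell cannot be told apart in any difference below.

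Heat shock proteins are chaperones that bind unfolded or newly made proteins. DnaJ proteins hand such clients to HSP70 and trigger its ATPase, HSP90 acts later on kinases and receptors, small heat shock proteins hold proteins that would aggregate, and hspd1 and hspe1 form the folding chamber of the mitochondrion. Some of these genes are needed in every cell, while others are induced through heat shock factor when proteins unfold. Immediate early genes are transcribed within minutes of a growth signal or stress from regulators already present in the cell, and enzymatic dissociation of tissue is known to induce many of them. Fos and Jun proteins pair as the transcription factor AP-1, egr genes encode zinc finger factors, atf3 encodes a stress-induced repressor, and btg and gadd45 proteins restrain the cell cycle.

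The arrays were checked against marker lists of the tissues. All 16 liver, 14 exocrine pancreas and 10 intestine genes measured were higher in GFP+ over the 4 ages, and 13 of 14 neuron, 11 of 12 photoreceptor and 15 of 16 epidermis genes were lower. At 6 dpf alone 15 of the liver, 3 of the exocrine pancreas and 2 of the intestine genes were called higher. The mean intestine score was then 1.48 to 2.06 in GFP+ and 1.06 to 1.48 in GFP- arrays. The GFP- arrays were not free of digestive RNA. Their mean exocrine pancreas score lay between 2.92 and 3.33 at 6 dpf, against 3.8 to 3.91 in GFP+ arrays, and their mean liver score between 0.59 and 2.31 at 4 dpf. The within-group SD, pooled over groups, had a median of 0.29 over the immediate early genes, 0.17 over the chaperone genes and 0.18 over all genes. It was 0.60 for hsp70.3, 0.49 for btg1 and 0.47 for jun. The mean immediate early score of the second replicate at 4 dpf stood above the others in both gates, at 1.35 against 0.75 and 0.72 in GFP+ and 1.55 against 0.99 and 0.99 in GFP-. The third GFP+ array at 6 dpf had the lowest mean immediate early score of all arrays, 0.46 against 0.73 and 0.65 in its group, and correlated with the other arrays of its group at 0.897. The counts of immediate early calls that moved most without these arrays are given both ways below.

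**Figure D1:**
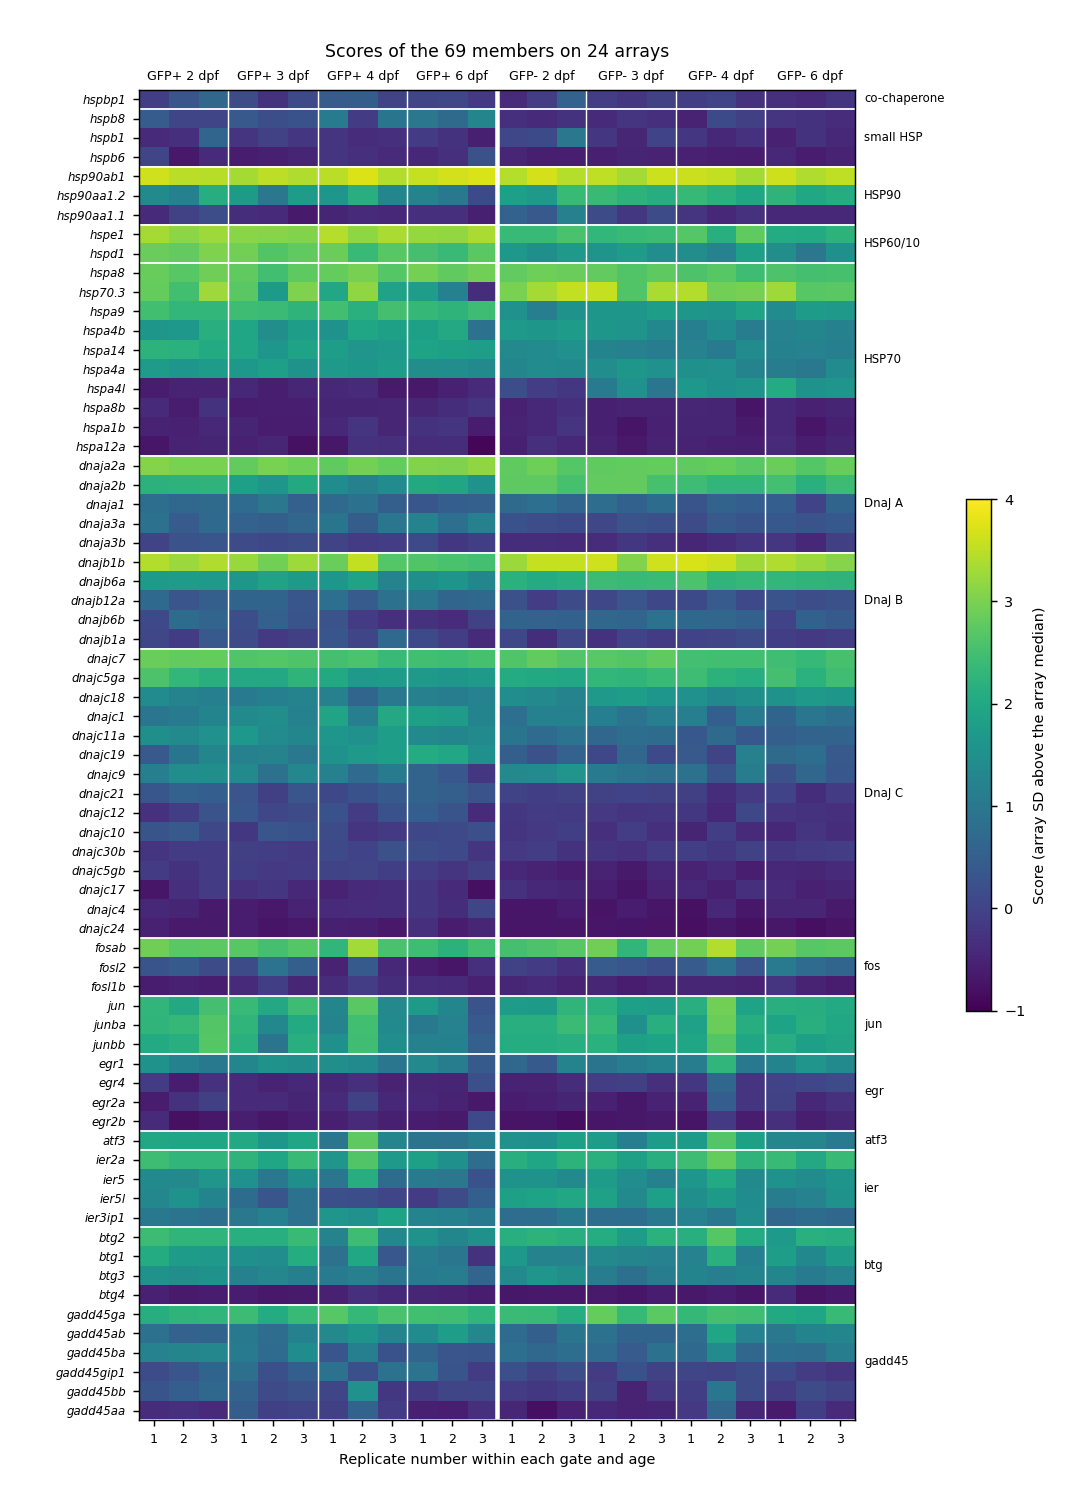
Scores of the 69 genes (rows, by family) on the 24 arrays (columns, by gate and age), in array SD above the array median. No gene mean was subtracted, so colours are to be compared along a row and not between rows. The second replicate at 4 dpf is high for most immediate early genes in both gates, and hspd1, hspe1 and hspa9 are higher in every GFP+ group than in every GFP- group.

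Over the 4 ages 24 of the 44 chaperone genes were higher in GFP+ cells, and 7 of the 25 immediate early genes were called in either direction. Of the 69 genes, 26 were higher and 15 lower in GFP+ cells, where 40.6% of all 8793 genes were called higher and 20.9% lower. The chaperone genes held 24 of the 26 higher calls and 10 of the lower ones, and the immediate early symbols held 2 and 5. The 2 higher were gadd45gip1 and ier3ip1, which came in by name only. The median difference was 0.14 over the 44 chaperone genes and -0.02 over the 25 immediate early genes, against 0.09 over all genes. Taken over the 69 genes, the shares of higher and of lower calls are close to those of all genes. The balance of calls depends on the scaling. Of all genes 3566 were higher and 1839 lower with the deposited scores, and 2766 and 2028 after quantile normalization. That step moved the median over all genes from 0.09 to 0.04. The median over the 69 genes moved from 0.07 to 0.02, and at 6 dpf from 0.07 to -0.04. The immediate early counts over the 4 ages depend on the second replicate of 4 dpf and on the pairing of the gates. Without that replicate in both gates 5 were higher and 9 lower, beside 40.7% and 21.2% of all genes. With a fixed term for the pair of gates sorted from 1 replicate 4 were higher and 8 lower, beside 38.8% and 20.7%. In both settings gadd45gip1 and ier3ip1 were among the higher calls. Both settings were chosen after seeing the data.

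The gate difference was called for 17, 16, 27 and 35 genes at the 4 ages in order. At 2 dpf 12 were higher in GFP+ and 5 lower, beside 12.3% and 7.71% of all genes. The total of 17 fell to 9 without the first GFP+ array at 2 dpf, and to 11 without either the first or the third GFP- array at 2 dpf. These fits, and that without the third GFP+ array at 4 dpf, have no share of all genes beside them. At 3 dpf 10 were higher and 6 lower, beside 18.5% and 11.9% of all genes. At 4 dpf 16 were higher and 11 lower, beside 23.2% and 12.1%, and the total was 17 without the third GFP+ array at 4 dpf. At 6 dpf 18 were higher and 17 lower, beside 25.8% and 15.6%. Called higher at all 4 ages were 7 genes, dnaja3a, dnajc11a, dnajc5gb, hspa14, hspa9, hspd1 and hspe1, where 6.86% of all genes were. Called lower at all 4 ages were 4, dnaja2b, dnajb6a, hspa4l and ier5l, where 3.86% of all genes were. These calls are those of the brightest probe sets, and the dimmer ones of hspa9 and dnajb6a were not called so at all 4 ages.

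**Figure D2:**
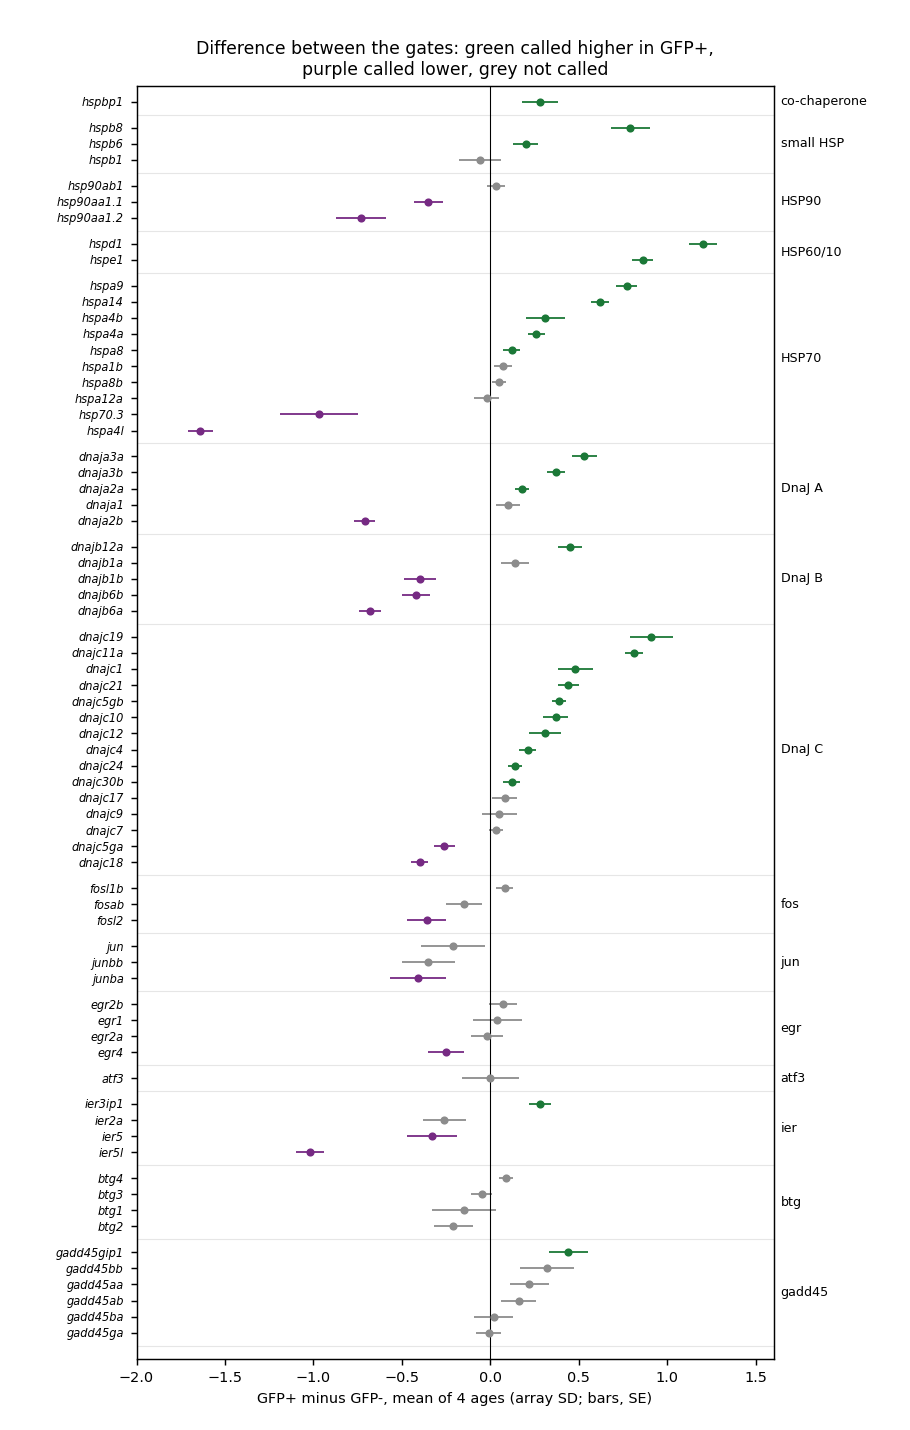
Difference between GFP+ and GFP- cells over the 4 ages for each of the 69 genes, in array SD, with bars of 1 SE and colour for called genes. The mitochondrial hspd1 lies at 1.2 and the HSP110 gene hspa4l at -1.64.

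The members that act in mitochondria were higher in GFP+ cells. Sorted by location after the values had been seen, and so without a test of the group, 9 of 9 were called higher over the 4 ages, beside 40.6% of all genes, with a median difference of 0.77. For hspd1, the barrel of the mitochondrial chaperonin, the GFP+ scores were 2.86, 2.79 and 3.04 (2 dpf), 2.93, 2.65 and 2.77 (3 dpf), 2.88, 2.39 and 2.71 (4 dpf), 2.53, 2.37 and 2.72 (6 dpf). Its GFP- scores were 1.67, 1.49 and 1.7 (2 dpf), 1.59, 1.77 and 1.46 (3 dpf), 1.47, 1.22 and 1.83 (4 dpf), 1.47, 0.99 and 1.51 (6 dpf). Every GFP+ array lay above every GFP- array, and the difference over the 4 ages was 1.2 ± 0.08 (adjusted p = 2.37e-10).

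Its lid, hspe1, had GFP+ scores of 3.33, 3.13 and 3.27 (2 dpf), 3.12, 3.1 and 3.06 (3 dpf), 3.45, 3.16 and 3.36 (4 dpf), 3.2, 3.19 and 3.36 (6 dpf). The GFP- scores of hspe1 were 2.39, 2.39 and 2.56 (2 dpf), 2.32, 2.37 and 2.42 (3 dpf), 2.68, 2.16 and 2.77 (4 dpf), 2.08, 2.05 and 2.24 (6 dpf). The groups did not overlap at any age, and the difference was 0.86 ± 0.06 over the 4 ages (adjusted p = 4.38e-10) and reached 1.13 ± 0.12 at 6 dpf. Mortalin, encoded by hspa9, is the HSP70 of the matrix that pulls in and folds imported proteins. It scored 2.49, 2.31 and 2.31 (2 dpf), 2.44, 2.41 and 2.25 (3 dpf), 2.48, 2.17 and 2.53 (4 dpf), 2.33, 2.25 and 2.44 (6 dpf) in GFP+ cells and 1.53, 1.13 and 1.54 (2 dpf), 1.64, 1.64 and 1.78 (3 dpf), 1.65, 1.58 and 1.88 (4 dpf), 1.42, 1.74 and 1.7 (6 dpf) in GFP- cells. The lowest GFP+ array stood above the highest GFP- array, with a difference of 0.77 ± 0.06 (adjusted p = 2.41e-09). A dimmer probe set of hspa9 gave 0.36 over the 4 ages (adjusted p = 8.64e-04). Among the single ages it was called at 4 dpf only, with 0.44 (adjusted p = 0.043). The DnaJ proteins of mitochondria, dnaja3a and dnaja3b, differed by 0.53 ± 0.07 and 0.37 ± 0.05.

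The import motor component dnajc19 was called higher in GFP+ cells at 3, 4 and 6 dpf and was not called at 2 dpf. It scored 0.40, 0.95 and 1.3 (2 dpf), 1.18, 1.23 and 1.01 (3 dpf), 1.57, 1.68 and 1.8 (4 dpf), 2.07, 1.99 and 1.5 (6 dpf) in GFP+ cells, rising with age. It scored 0.51, 0.24 and 0.58 (2 dpf), 0.06, 0.66 and 0.10 (3 dpf), 0.40, 0.02 and 1.18 (4 dpf), 0.73, 0.81 and 0.40 (6 dpf) in GFP- cells. From 3 dpf on the gates were apart on every array. The difference was 0.44 ± 0.25 at 2 dpf, which did not pass the test (adjusted p = 0.27), and 1.21 ± 0.25 at 6 dpf (adjusted p = 7.46e-04). The change of this difference from 2 to 6 dpf was not called. With the pair term it was 0.77 ± 0.27, also not called (adjusted p = 0.112). The cristae protein dnajc11a scored 1.49, 1.37 and 1.52 (2 dpf), 1.66, 1.42 and 1.3 (3 dpf), 1.63, 1.53 and 1.8 (4 dpf), 1.37, 1.29 and 1.37 (6 dpf) in GFP+ cells and 0.95, 0.75 and 0.90 (2 dpf), 0.65, 0.80 and 0.77 (3 dpf), 0.37, 0.72 and 0.38 (4 dpf), 0.51, 0.60 and 0.60 (6 dpf) in GFP- cells. All of its GFP+ arrays were above all of its GFP- arrays, by 0.81 ± 0.05 on average (adjusted p = 1.53e-10). The ribosomal protein gadd45gip1 was higher by 0.44 ± 0.11, and dnajc30b by 0.12 ± 0.05, a call lost with the pair term (adjusted p = 0.0673).

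By the same sorting, 4 members were placed in the ER, its membrane or the early secretory pathway. All 4 were called higher over the 4 ages, beside 40.6% of all genes, with a median of 0.41. The sorting was by hand and may have missed members of the ER membrane, such as dnajc18. That gene was counted with the others and was called lower, by -0.40 ± 0.05 (adjusted p = 3.28e-06). The membrane protein dnajb12a differed by 0.45 ± 0.07, dnajc1 by 0.48 ± 0.10, the disulfide reductase dnajc10 by 0.37 ± 0.07 and ier3ip1 by 0.28 ± 0.06. At 2 dpf dnajc1 scored 0.96, 1.07 and 1.25 in GFP+ and 0.83, 1.2 and 1.19 in GFP- cells, and at 6 dpf 1.84, 1.77 and 1.26 and 0.62, 0.96 and 0.85. Its gates overlapped at 2 dpf and were apart at 6 dpf, by 0.81 ± 0.21. Among the other 33 chaperone genes, 13 were higher, a share close to the 40.6% of all genes, and 10 lower, beside 20.9%. Their median of 0.07 lies below the 0.09 of all genes.

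The cytosolic HSP70 genes went both ways. The constitutive hspa8 scored 2.84, 2.7 and 2.92 (2 dpf), 2.78, 2.48 and 2.75 (3 dpf), 2.81, 2.98 and 2.69 (4 dpf), 2.95, 2.77 and 2.94 (6 dpf) in GFP+ cells and 2.79, 2.89 and 2.86 (2 dpf), 2.8, 2.64 and 2.76 (3 dpf), 2.61, 2.71 and 2.44 (4 dpf), 2.6, 2.52 and 2.55 (6 dpf) in GFP- cells. Its gates overlapped until 4 dpf and were apart at 6 dpf, with a difference of 0.33 ± 0.10 (adjusted p = 0.0126). The ribosome-associated hspa14 was higher by 0.62 ± 0.05, and hspa4a and hspa4b, HSP110 proteins that reload HSP70, by 0.26 ± 0.05 and 0.31 ± 0.11. The probe sets of hspa8b, hspa1b and hspa12a had group means between -0.61 and -0.35 and were called in no comparison.

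The heat-inducible hsp70.3 was lower in GFP+ cells and had the largest replicate spread of the 69 genes. Its GFP+ scores were 2.82, 2.49 and 3.27 (2 dpf), 2.73, 1.72 and 3.03 (3 dpf), 1.99, 3.17 and 1.89 (4 dpf), 1.81, 1.19 and -0.34 (6 dpf). Its GFP- scores were 3.0, 3.33 and 3.54 (2 dpf), 3.56, 2.64 and 3.36 (3 dpf), 3.42, 2.94 and 2.98 (4 dpf), 3.27, 2.7 and 2.72 (6 dpf). At 6 dpf all 3 GFP+ arrays were below the GFP- arrays, and the third GFP+ array alone was below 0. The difference was -0.97 ± 0.22 over the 4 ages (adjusted p = 9.51e-04) and -2.01 ± 0.44 at 6 dpf (adjusted p = 0.00134), and was not called at 2, 3 or 4 dpf. Its probe set is of a design that may bind related transcripts, so signal of near-identical hsp70 copies cannot be separated. The probe set annotated to hsp70.1, hsp70l and hsp70.3 gave -1.05 ± 0.24 over the 4 ages and -2.22 ± 0.49 at 6 dpf.

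The opposite of hspd1 was hspa4l, an HSP110 gene known in mammals for its abundance in testis. Its GFP+ scores were -0.62, -0.51 and -0.52 (2 dpf), -0.43, -0.58 and -0.46 (3 dpf), -0.45, -0.39 and -0.64 (4 dpf), -0.66, -0.54 and -0.41 (6 dpf), near the bottom of each array. Its GFP- scores were 0.18, -0.10 and -0.18 (2 dpf), 1.05, 1.53 and 0.97 (3 dpf), 1.67, 1.51 and 1.58 (4 dpf), 2.07, 1.54 and 1.61 (6 dpf). Every GFP- array was above every GFP+ array, and the gap widened with age. The difference was -0.52 ± 0.14 at 2 dpf and -1.67 ± 0.14 at 3 dpf. It was -2.08 ± 0.14 at 4 dpf and -2.28 ± 0.14 at 6 dpf (adjusted p = 5.76e-09). Photoreceptor markers moved in the same groups, their mean score going from between -0.03 and 0.57 at 2 dpf to between 2.42 and 2.82 at 6 dpf in GFP- cells, against 0.10 to 0.30 in GFP+ cells at 6 dpf. The part of photoreceptors in the hspa4l difference was not tested.

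Among the HSP90 genes, the abundant constitutive hsp90ab1 scored 3.63, 3.49 and 3.47 (2 dpf), 3.33, 3.5 and 3.4 (3 dpf), 3.48, 3.73 and 3.43 (4 dpf), 3.57, 3.66 and 3.72 (6 dpf) in GFP+ cells and 3.44, 3.67 and 3.45 (2 dpf), 3.52, 3.32 and 3.61 (3 dpf), 3.59, 3.54 and 3.33 (4 dpf), 3.62, 3.41 and 3.53 (6 dpf) in GFP- cells. The gates overlapped, with a difference of 0.03 ± 0.05 (adjusted p = 0.607). The cytosolic hsp90aa1.2 scored 1.38, 1.2 and 2.11 (2 dpf), 1.72, 0.99 and 1.76 (3 dpf), 1.63, 2.16 and 1.3 (4 dpf), 1.23, 1.01 and 0.13 (6 dpf) in GFP+ cells. In GFP- cells it scored 1.83, 1.69 and 2.36 (2 dpf), 2.36, 2.23 and 2.11 (3 dpf), 2.34, 2.19 and 1.94 (4 dpf), 2.26, 1.98 and 2.1 (6 dpf). Its gates were apart at 3 and 6 dpf and overlapped at 2 and 4 dpf, and the difference was -0.73 ± 0.14 over the 4 ages (adjusted p = 2.08e-04) and -1.32 ± 0.28 at 6 dpf. The probe set shared with hsp90aa1.1 differed by -0.84 ± 0.15 and, at 6 dpf, by -1.66 ± 0.31.

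In zebrafish hsp90aa1.1 is the HSP90 needed to assemble muscle myosin. It scored -0.39, -0.04 and 0.18 (2 dpf), -0.34, -0.40 and -0.63 (3 dpf), -0.49, -0.39 and -0.43 (4 dpf), -0.30, -0.33 and -0.57 (6 dpf) in GFP+ cells and 0.58, 0.40 and 1.18 (2 dpf), 0.16, -0.19 and 0.17 (3 dpf), -0.22, -0.43 and -0.28 (4 dpf), -0.43, -0.45 and -0.44 (6 dpf) in GFP- cells. GFP- was above GFP+ on every array at 2 and 3 dpf, and the gates overlapped at 4 and 6 dpf. There both gates scored between -0.57 and -0.22, near the low scores of hspa8b, hspa1b and hspa12a, so the size of any change is limited by the low end of the scale. The difference at 2 dpf was -0.81 ± 0.16 (adjusted p = 0.00148), and the gene fell with age in GFP- cells, with a change of -1.16 ± 0.16 (adjusted p = 3.79e-05). The mean score of 18 skeletal muscle markers in GFP- cells went from between 0.99 and 1.34 at 2 dpf to between -0.19 and 0.20 at 6 dpf. In GFP+ cells it went from between 0.59 and 1.02 to between -0.32 and 0.06, and the median change of the list was -1.09 in both gates. The part of muscle in the hsp90aa1.1 difference was not tested.

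The small heat shock protein hspb8, which works with bag3 in the autophagy of misfolded proteins, was higher in GFP+ cells. Its GFP+ scores were 0.46, 0.04 and 0.04 (2 dpf), 0.40, 0.21 and 0.25 (3 dpf), 1.07, -0.12 and 0.95 (4 dpf), 0.98, 0.72 and 1.28 (6 dpf). Its GFP- scores were -0.31, -0.38 and -0.27 (2 dpf), -0.40, -0.22 and -0.33 (3 dpf), -0.50, 0.12 and -0.05 (4 dpf), -0.22, -0.27 and -0.36 (6 dpf). The gates were apart at 2, 3 and 6 dpf and overlapped at 4 dpf, where the second GFP+ array was low, and the difference was 0.79 ± 0.11 over the 4 ages (adjusted p = 5.47e-06) and 1.28 ± 0.22 at 6 dpf. The actin-protecting hspb1 scored -0.40, -0.30 and 0.64 (2 dpf), -0.25, -0.03 and -0.21 (3 dpf), -0.25, -0.37 and -0.30 (4 dpf), -0.14, -0.27 and -0.56 (6 dpf) in GFP+ cells and 0.07, 0.12 and 0.99 (2 dpf), -0.21, -0.46 and 0.01 (3 dpf), -0.20, -0.43 and -0.28 (4 dpf), -0.55, -0.26 and -0.45 (6 dpf) in GFP- cells. The gates overlapped at every age, both being highest at 2 dpf on average, and its gate difference of -0.06 ± 0.12 was not called. The muscle-associated hspb6 differed by 0.20 ± 0.07 and the exchange factor hspbp1 by 0.28 ± 0.10, both called. The mean score of hspb6 was -0.44, near the low end of the scale, which limits the reading of its difference. In replicate order the scores of hspbp1 were -0.08, 0.32 and 0.65 (2 dpf), 0.15, -0.26 and 0.10 (3 dpf), 0.44, 0.48 and 0.02 (4 dpf), 0.04, 0.07 and -0.17 (6 dpf) in GFP+ cells and -0.39, -0.09 and 0.57 (2 dpf), -0.10, -0.21 and -0.03 (3 dpf), -0.07, 0.00 and -0.28 (4 dpf), -0.32, -0.38 and -0.24 (6 dpf) in GFP- cells, with the gates apart at 4 and 6 dpf.

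The class A DnaJ paralogs dnaja2a and dnaja2b, cytosolic partners of HSP70, went in opposite directions. For dnaja2a the GFP+ scores were 3.08, 3.0 and 2.99 (2 dpf), 2.8, 2.99 and 2.9 (3 dpf), 2.77, 2.95 and 2.82 (4 dpf), 3.06, 3.04 and 3.17 (6 dpf), and the GFP- scores were 2.78, 2.9 and 2.68 (2 dpf), 2.77, 2.79 and 2.82 (3 dpf), 2.78, 2.82 and 2.72 (4 dpf), 2.86, 2.69 and 2.84 (6 dpf). They overlapped at 3 and 4 dpf and were apart at 2 and 6 dpf, and the difference was 0.18 ± 0.04 (adjusted p = 6.76e-04). For dnaja2b they were 2.21, 2.23 and 2.26 (2 dpf), 1.83, 1.62 and 2.04 (3 dpf), 1.43, 1.18 and 1.42 (4 dpf), 2.04, 1.93 and 1.57 (6 dpf) in GFP+ cells and 2.76, 2.75 and 2.55 (2 dpf), 2.8, 2.79 and 2.54 (3 dpf), 2.45, 2.29 and 2.3 (4 dpf), 2.5, 2.18 and 2.42 (6 dpf) in GFP- cells. Within each age every GFP- array was higher, and the difference was -0.71 ± 0.06 (adjusted p = 1.07e-08). The farnesylated dnaja1 was not called between gates at any age.

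Of 5 class B genes, dnajb6a, dnajb6b and dnajb1b were lower in GFP+ cells and dnajb12a higher, beside 20.9% and 40.6% of all genes. The aggregation suppressor dnajb6a scored 1.73, 1.74 and 1.71 (2 dpf), 1.65, 1.88 and 1.72 (3 dpf), 1.63, 1.89 and 1.24 (4 dpf), 1.49, 1.58 and 1.29 (6 dpf) in GFP+ cells. In GFP- cells dnajb6a scored 2.2, 2.07 and 2.13 (2 dpf), 2.43, 2.36 and 2.41 (3 dpf), 2.58, 2.27 and 2.33 (4 dpf), 2.32, 2.28 and 2.25 (6 dpf). Every GFP+ array was below every GFP- array, and the difference was -0.68 ± 0.06 (adjusted p = 1.16e-08). A dimmer probe set of dnajb6a was called the other way, at 0.27, and its direction depends on the probe set. The heat-inducible dnajb1b scored 3.43, 3.25 and 3.4 (2 dpf), 3.22, 2.93 and 3.27 (3 dpf), 2.86, 3.54 and 2.69 (4 dpf), 2.65, 2.57 and 2.51 (6 dpf) in GFP+ cells and 3.25, 3.57 and 3.56 (2 dpf), 3.63, 3.05 and 3.64 (3 dpf), 3.7, 3.62 and 3.29 (4 dpf), 3.41, 3.24 and 3.09 (6 dpf) in GFP- cells. It overlapped between gates until 4 dpf and lay apart at 6 dpf, by -0.67 ± 0.19 (adjusted p = 0.00771).

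The 15 class C genes held 10 that were higher in GFP+ and 2 that were lower, dnajc18 and dnajc5ga, beside 40.6% and 20.9% of all genes. The paralogs dnajc5ga and dnajc5gb, of the cysteine string protein family that guards vesicle release, went in opposite directions, with -0.26 ± 0.06 and 0.39 ± 0.04. The mean score of dnajc5gb was -0.30. Its GFP- group means lay between -0.53 and -0.43, toward the low end of the scale, which limits the reading of its difference. The GFP+ scores of dnajc5ga were 2.6, 2.32 and 2.13 (2 dpf), 2.02, 2.02 and 2.25 (3 dpf), 2.04, 1.71 and 1.75 (4 dpf), 1.69, 1.65 and 1.69 (6 dpf). Its GFP- scores were 2.07, 2.03 and 1.98 (2 dpf), 2.32, 2.27 and 2.36 (3 dpf), 2.45, 2.21 and 2.11 (4 dpf), 2.53, 2.19 and 2.47 (6 dpf). GFP+ was above GFP- on every array at 2 dpf and below it on every array at 3, 4 and 6 dpf. The 2 dpf difference of 0.32 ± 0.12 was not called but was with the pair term (adjusted p = 0.0393), and the gates were apart at 6 dpf by -0.72 ± 0.12 (adjusted p = 9.22e-05). Neuron markers averaged between 1.22 and 2.6 in GFP- and between 0.34 and 0.95 in GFP+ arrays, and their part was not tested. The HSP70 and HSP90 adaptor dnajc7 scored 2.86, 2.8 and 2.82 (2 dpf), 2.65, 2.69 and 2.63 (3 dpf), 2.53, 2.58 and 2.36 (4 dpf), 2.48, 2.45 and 2.54 (6 dpf) in GFP+ cells and 2.65, 2.79 and 2.66 (2 dpf), 2.73, 2.66 and 2.77 (3 dpf), 2.5, 2.49 and 2.49 (4 dpf), 2.47, 2.34 and 2.55 (6 dpf) in GFP- cells. Its gates overlapped from 3 dpf on, with a difference of 0.03 ± 0.04 over the 4 ages. Also higher were dnajc21 of ribosome assembly, by 0.44 ± 0.06, and dnajc12, a partner of aromatic amino acid hydroxylases, by 0.31 ± 0.09. The genes dnajc4 and dnajc24 were higher by 0.21 ± 0.05 and 0.14 ± 0.04, at low mean scores of -0.52 and -0.65. The 1st percentile of array scores was -0.70, -0.65 and -0.71 in GFP+ and -0.85, -0.78 and -0.85 in GFP- cells at 4 dpf. At 6 dpf it was -0.73, -0.74 and -0.85 against -0.81, -0.85 and -0.83. The part of this low end in both differences was not tested.

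**Figure D3:**
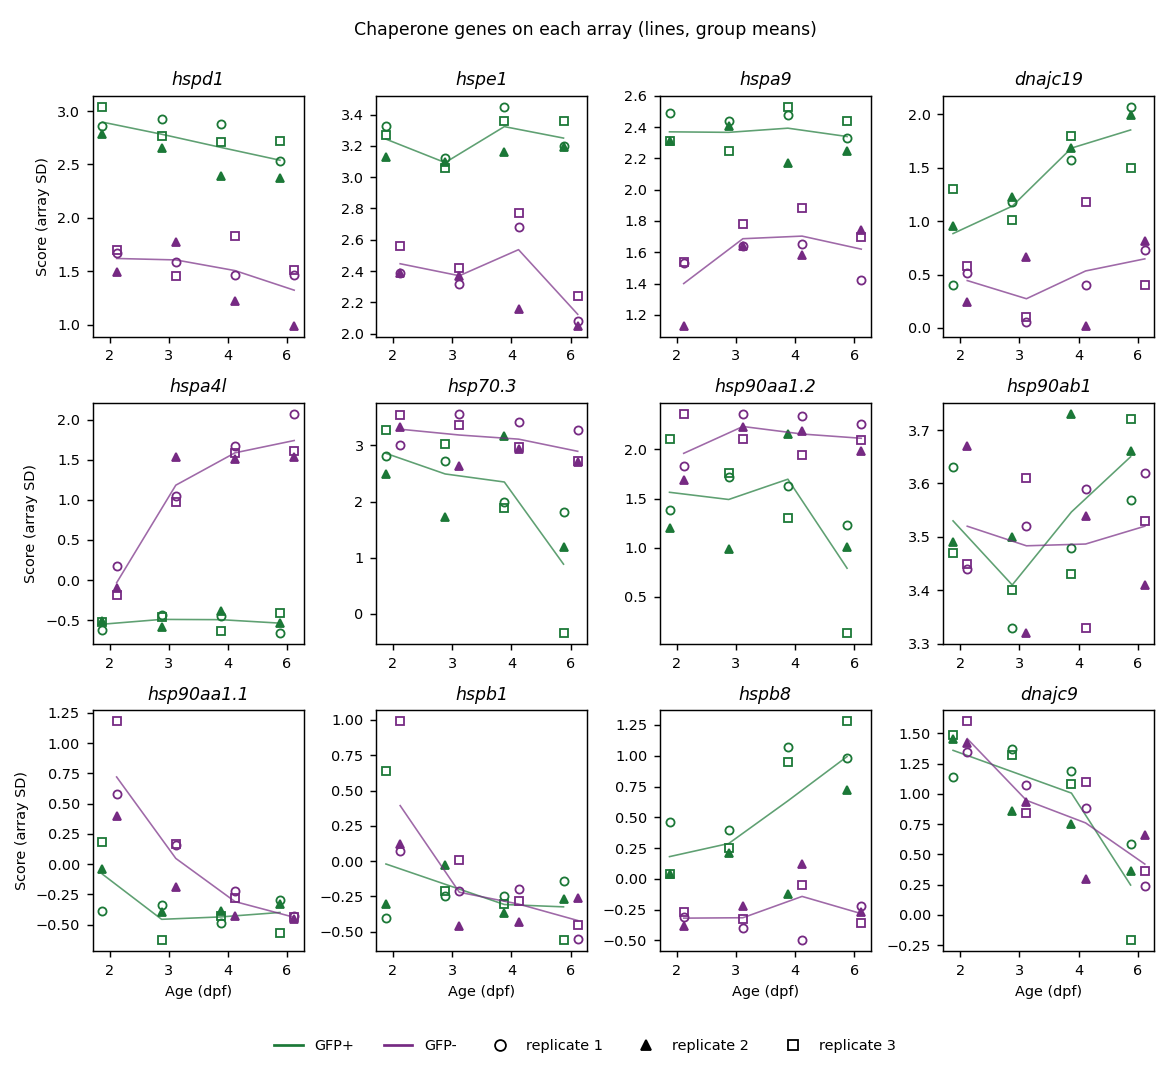
Scores of selected chaperone genes on each array (y axis, array SD) by age (x axis, 2, 3, 4 and 6 dpf at equal spacing), with a line through the group means. GFP+ and GFP- points of hspd1 do not meet at any age, those of hspa4l separate with age, and hsp70.3 drops in GFP+ cells at 6 dpf.

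With all arrays in the fit, the immediate early genes had more calls between gates at 6 dpf than at any other age. Over all genes the shares of higher and of lower calls were also largest at 6 dpf. At that age junba, junbb, jun, btg1, fosl2, ier2a, ier5 and ier5l were lower in GFP+ cells. At 2 dpf 0 were higher and 1 lower in GFP+, beside 12.3% and 7.71% of all genes. The numbers were 1 and 1 at 3 dpf, beside 18.5% and 11.9%, and 2 and 4 at 4 dpf, beside 23.2% and 12.1%. At 6 dpf 1 was higher and 8 were lower, beside 25.8% and 15.6%. The 2 higher at 4 dpf were gadd45gip1 and ier3ip1, and the 1 at 6 dpf was ier3ip1, both symbols that came in by name only. Without the second replicate of 4 dpf in both gates 2 were higher and 6 lower at 4 dpf, beside 20.8% and 11% of all genes, with egr4 lost and atf3, ier2a and ier5 gained. With the pair term 2 were higher and 1 lower at 2 dpf, beside 12.1% and 7.84% of all genes, and 3 and 1 at 3 dpf, beside 18.9% and 11.7%. It gave 2 and 6 at 4 dpf, beside 21.7% and 12.2%, and 1 and 11 at 6 dpf, beside 23% and 15.6%. The higher ones were again gadd45gip1 and ier3ip1 at 4 dpf and ier3ip1 at 6 dpf. The median difference of the 25 genes was 0.19, 0.19, -0.33 and -0.32 at the 4 ages in order, while that of all genes lay between 0.05 and 0.12. The 6 dpf count depends on the third GFP+ array: without it 4 immediate early genes were lower, egr4, fosl2, ier5l and junba, beside 13.8% of all genes. In that fit 2 were higher at 6 dpf, gadd45gip1 and ier3ip1, beside 29% of all genes. At 4 dpf it gave 3 higher and 4 lower, beside 27.4% and 12.8%, so 6 dpf no longer had the most calls. Without that array and without the second replicate of 4 dpf in both gates, a combination chosen after seeing the data, 12 were lower, beside 15.7% of all genes. That array also had a difference between the 3′ and 5′ control probe sets of GAPDH, a measure of RNA length, of 0.27 against -0.13 and -0.10 in its group. The GAPDH scores of that array were low, 0.27 for the 3′ and 0 for the 5′ probe set, which limits this measure. The part of RNA quality was not tested.

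The jun genes encode a core partner of AP-1. In GFP+ cells jun scored 2.3, 2.01 and 2.52 (2 dpf), 2.38, 2.02 and 2.44 (3 dpf), 1.29, 2.72 and 1.36 (4 dpf), 1.73, 1.3 and 0.27 (6 dpf). In GFP- cells jun scored 1.77, 1.72 and 2.27 (2 dpf), 2.19, 1.83 and 1.78 (3 dpf), 2.15, 2.94 and 1.9 (4 dpf), 2.15, 2.12 and 2.05 (6 dpf). At 6 dpf the gates were apart, at the younger ages they overlapped, and the second replicate was the highest of its group at 4 dpf in both gates. The difference was 0.36 ± 0.35 at 2 dpf (adjusted p = 0.549) and -1.01 ± 0.35 at 6 dpf (adjusted p = 0.0293). The repressive partner junba scored 2.27, 2.33 and 2.67 (2 dpf), 2.28, 1.33 and 2.05 (3 dpf), 1.24, 2.48 and 1.38 (4 dpf), 1.03, 1.22 and 0.39 (6 dpf) in GFP+ cells and 2.15, 2.13 and 2.4 (2 dpf), 2.34, 1.51 and 2.15 (3 dpf), 1.87, 2.87 and 2.11 (4 dpf), 1.91, 2.14 and 2.0 (6 dpf) in GFP- cells. Its gates overlapped until 4 dpf and were apart at 6 dpf. Its 2 dpf arrays differed by 0.20 ± 0.32 and its 6 dpf arrays by -1.14 ± 0.32 (adjusted p = 0.00828). Its paralog junbb scored 2.06, 2.16 and 2.68 (2 dpf), 2.17, 0.92 and 2.14 (3 dpf), 1.51, 2.47 and 1.46 (4 dpf), 1.19, 1.2 and 0.54 (6 dpf) in GFP+ and 2.09, 2.1 and 2.15 (2 dpf), 2.19, 1.85 and 1.9 (3 dpf), 1.96, 2.66 and 1.93 (4 dpf), 2.12, 1.82 and 1.92 (6 dpf) in GFP- cells. The 6 dpf difference of junbb was -0.98 ± 0.30 (adjusted p = 0.0157), where the gates were apart and the third GFP+ array was the lowest for all 3 jun genes.

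The brightest probe set of the AP-1 gene fosl2 changed in opposite directions with age in the gates. It scored 0.30, 0.42 and 0.14 (2 dpf), 0.16, 0.90 and 0.51 (3 dpf), -0.53, 0.41 and -0.45 (4 dpf), -0.61, -0.70 and -0.31 (6 dpf) in GFP+ cells. It scored -0.03, -0.11 and -0.32 (2 dpf), 0.44, 0.33 and 0.20 (3 dpf), 0.43, 0.89 and 0.31 (4 dpf), 1.07, 0.75 and 0.63 (6 dpf) in GFP- cells. GFP+ was above GFP- on every array at 2 dpf and below it on every array at 6 dpf. The 6 dpf difference was -1.35 ± 0.22 (adjusted p = 5.97e-05), and the 2 dpf difference of 0.44 ± 0.22 was not called (adjusted p = 0.188). Neither of the other 2 probe sets of fosl2, with a mean score of 0.09 each against 0.20 for the one used, was called at 6 dpf, where they gave 0.06 (adjusted p = 0.87) and -0.36 (adjusted p = 0.232). Their change with age was -0.13 and -0.47 in GFP+ and 0.17 and 0.37 in GFP- cells, also not called, so the opposite changes are those of 1 probe set. The classic fos gene fosab scored 2.92, 2.72 and 2.74 (2 dpf), 2.71, 2.53 and 2.69 (3 dpf), 2.3, 3.3 and 2.56 (4 dpf), 2.44, 2.21 and 2.48 (6 dpf) in GFP+ and 2.53, 2.6 and 2.7 (2 dpf), 2.91, 2.3 and 2.8 (3 dpf), 2.94, 3.43 and 2.78 (4 dpf), 2.95, 2.7 and 2.74 (6 dpf) in GFP- cells. Its gates overlapped at 3 and 4 dpf, with GFP+ above at 2 dpf and below at 6 dpf, but this brightest probe set was not called between gates at any age, with -0.42 ± 0.20 at 6 dpf, which the pair term called (adjusted p = 0.0197). The other 3 probe sets of fosab gave -0.71, -1.19 and -0.96 at 6 dpf and were called. The probe set of fosl1b was not called in any comparison between gates.

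The stress repressor atf3 scored 1.98, 1.95 and 1.93 (2 dpf), 2.01, 1.65 and 1.95 (3 dpf), 0.97, 2.75 and 1.28 (4 dpf), 0.92, 0.90 and 1.14 (6 dpf) in GFP+ cells and 1.52, 1.51 and 1.84 (2 dpf), 1.74, 1.16 and 1.75 (3 dpf), 1.72, 2.66 and 1.85 (4 dpf), 1.31, 1.32 and 1.04 (6 dpf) in GFP- cells. Its gates overlapped from 3 dpf on, its highest arrays were the second replicates of 4 dpf, and its difference was 0.00 ± 0.16 over the 4 ages. The serum response gene egr1 scored 1.55, 1.19 and 1.03 (2 dpf), 1.29, 1.54 and 1.47 (3 dpf), 1.48, 1.4 and 0.96 (4 dpf), 1.35, 1.1 and 0.41 (6 dpf) in GFP+ cells and 0.67, 0.42 and 1.23 (2 dpf), 0.92, 1.1 and 1.24 (3 dpf), 1.1, 2.29 and 1.02 (4 dpf), 1.25, 1.6 and 1.4 (6 dpf) in GFP- cells. The gates overlapped except at 3 dpf. Its difference was 0.48 ± 0.28 at 2 dpf and -0.46 ± 0.28 at 6 dpf, and neither passed the test (adjusted p = 0.284 and 0.2). The neuronal egr4 was lower in GFP+ cells over the 4 ages, by -0.25 ± 0.10, with the neuron marker values above beside it. No call between gates was made for egr2a or for egr2b, which patterns the hindbrain.

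Of the immediate early symbols ier5l, a relative of ier5, which acts on heat shock factor in mammals, was called lower in GFP+ at all 4 ages, by sizes from -0.53 ± 0.17 at 2 dpf to -1.39 ± 0.17 at 4 dpf. It scored 1.32, 1.56 and 1.25 (2 dpf), 0.76, 0.34 and 0.88 (3 dpf), 0.22, 0.21 and 0.04 (4 dpf), -0.13, 0.14 and 0.50 (6 dpf) in GFP+ cells. It scored 1.85, 1.9 and 1.98 (2 dpf), 1.86, 1.39 and 1.83 (3 dpf), 1.49, 1.72 and 1.43 (4 dpf), 1.09, 1.22 and 1.56 (6 dpf) in GFP- cells. GFP- was higher within each age, and the difference was -1.02 ± 0.08 over the 4 ages (adjusted p = 3.45e-09). For ier2a the GFP+ scores were 2.44, 2.3 and 2.29 (2 dpf), 2.25, 1.93 and 2.36 (3 dpf), 1.61, 2.65 and 1.71 (4 dpf), 1.84, 1.5 and 0.78 (6 dpf), and the GFP- scores were 2.16, 1.93 and 2.24 (2 dpf), 2.18, 1.85 and 2.15 (3 dpf), 2.44, 2.81 and 2.26 (4 dpf), 2.36, 2.01 and 2.37 (6 dpf). GFP+ was above GFP- on every array at 2 dpf and below it at 6 dpf, where the difference was -0.88 ± 0.25 (adjusted p = 0.00895). At 6 dpf ier5 was also lower, with -0.75 ± 0.27.

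The btg genes act on the CCR4-NOT deadenylase and restrain division. The scores of btg2 were 2.42, 2.28 and 2.27 (2 dpf), 2.14, 2.14 and 2.37 (3 dpf), 1.24, 2.44 and 1.34 (4 dpf), 1.55, 1.29 and 1.5 (6 dpf) in GFP+ and 2.14, 2.23 and 2.14 (2 dpf), 2.1, 1.77 and 2.2 (3 dpf), 2.14, 2.68 and 2.07 (4 dpf), 1.69, 2.18 and 2.11 (6 dpf) in GFP- cells. Its gates overlapped at 3 and 4 dpf and were apart at 2 and 6 dpf. The difference at 4 dpf was -0.63 ± 0.23 (adjusted p = 0.0435), and that at 6 dpf was -0.55 ± 0.23, not called without the pair term and called with it (adjusted p = 0.0125). A second probe set of btg2, of mean score 1.4, was called at 6 dpf, with -1.54 (adjusted p = 8.41e-04), for the change with age in GFP+ cells, with -2.21 (adjusted p = 3.96e-05), and for the shift of the gate difference between 2 and 6 dpf, with -1.91 (adjusted p = 0.0115). For btg1 the GFP+ scores were 2.07, 1.75 and 1.7 (2 dpf), 1.51, 1.45 and 2.1 (3 dpf), 0.88, 1.99 and 0.35 (4 dpf), 1.1, 0.96 and -0.26 (6 dpf), and the GFP- scores were 1.66, 1.23 and 1.21 (2 dpf), 1.36, 1.28 and 1.22 (3 dpf), 1.21, 2.17 and 1.15 (4 dpf), 1.79, 1.34 and 1.76 (6 dpf). GFP+ was above GFP- on every array at 2 and 3 dpf and below it at 6 dpf. The 6 dpf difference of btg1 was -1.03 ± 0.36 (adjusted p = 0.031). No gate call was made for btg3 and the oocyte gene btg4.

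Among the gadd45 stress genes, whose proteins bind cell cycle kinases and activate p38 signalling, gadd45aa was called between gates at 3 dpf, by 0.62 ± 0.23 (adjusted p = 0.0466). In GFP+ cells gadd45ga scored 2.11, 2.25 and 2.29 (2 dpf), 2.42, 2.08 and 2.39 (3 dpf), 2.7, 2.33 and 2.56 (4 dpf), 2.49, 2.47 and 2.3 (6 dpf). In GFP- cells it scored 2.41, 2.36 and 2.12 (2 dpf), 2.82, 2.34 and 2.74 (3 dpf), 2.33, 2.53 and 2.46 (4 dpf), 2.04, 1.95 and 2.37 (6 dpf). The gates overlapped at every age, and its difference over the 4 ages was -0.01 ± 0.07. The difference of gadd45bb was 0.62 ± 0.31 at 2 dpf and of gadd45ba 0.51 ± 0.22, neither called without the pair term. The pair term called gadd45bb higher at 2 dpf, by 0.62 ± 0.14 (adjusted p = 0.00837), and at 3 dpf, by 0.58 ± 0.14 (adjusted p = 0.00755). It called gadd45ba higher at 2 dpf, by 0.51 ± 0.11 (adjusted p = 0.0075), and at 3 dpf, by 0.40 ± 0.11 (adjusted p = 0.0191). It called gadd45ba lower at 4 dpf, by -0.34 ± 0.11 (adjusted p = 0.0356), and at 6 dpf, by -0.48 ± 0.11 (adjusted p = 0.00501).

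**Figure D4:**
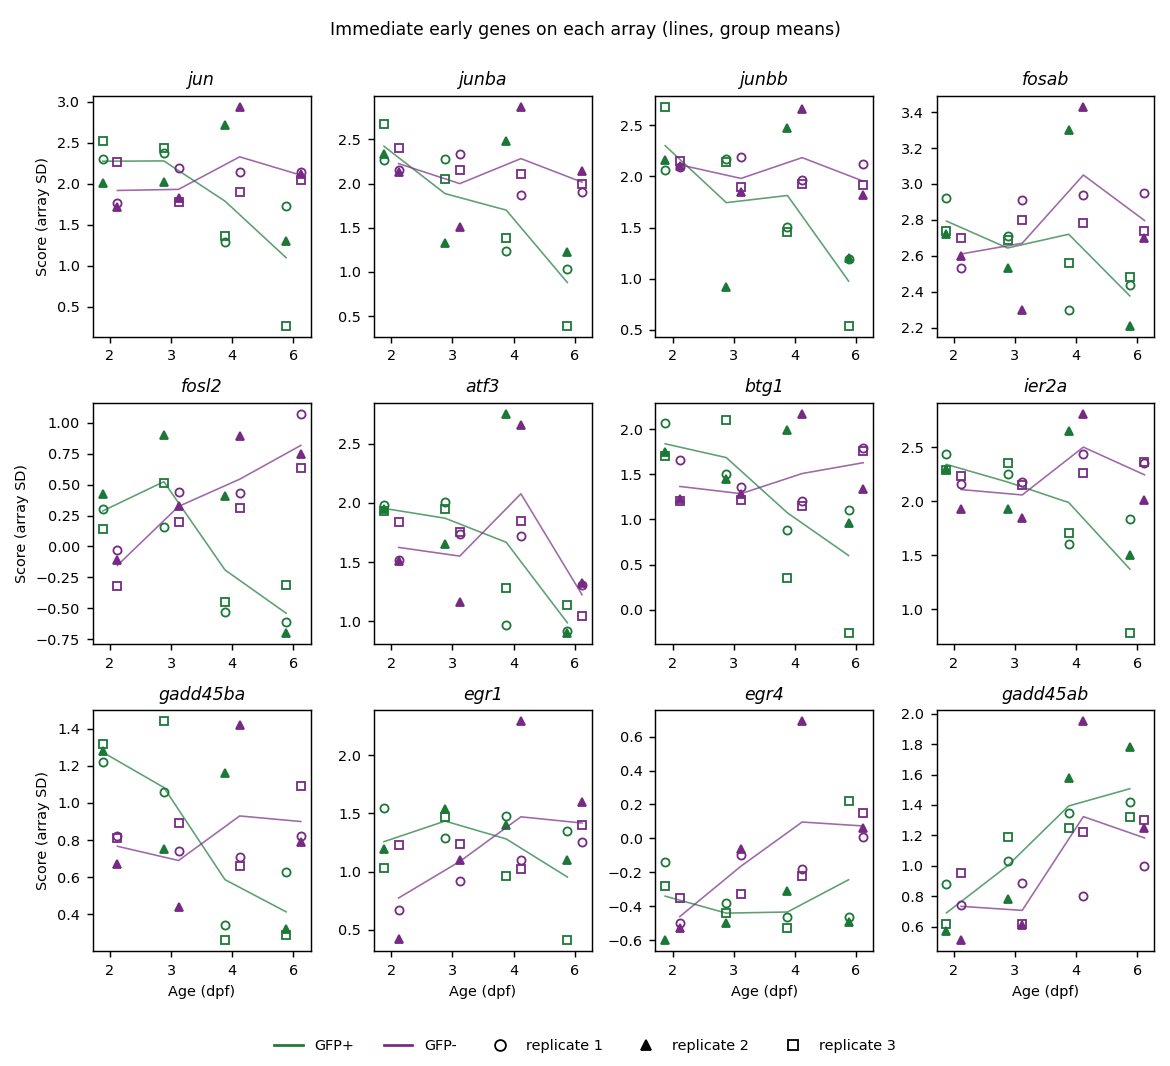
Scores of selected immediate early genes on each array (y axis, array SD) by age (x axis, 2, 3, 4 and 6 dpf at equal spacing), with a line through the group means. At 4 dpf 1 array of each gate stands above the others for most of the genes, and at 6 dpf the GFP+ arrays of jun and junba lie below the GFP- arrays.

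Between 2 and 6 dpf, 11 of the 25 immediate early genes fell in GFP+ cells, among them the jun genes, atf3, fosl2 and ier2a, and 1 fell in GFP- cells, ier5l. In GFP+ cells 5 of the 69 genes rose and 19 fell, beside 10.5% and 16.2% of all genes. Of those that fell, 11 were immediate early genes, with 1 that rose, and the 44 chaperone genes held 4 that rose and 8 that fell. The median change of the 25 immediate early genes was -0.51, against 0.02 over all genes and -0.09 over the chaperone genes. Without the third GFP+ array at 6 dpf 9 immediate early genes fell, beside 13.7% of all genes, and without the second replicate of 4 dpf as well 13 did, beside 16.5%. In GFP- cells 3 of the 69 rose and 6 fell, beside 9.11% and 12.2% of all genes, with 1 immediate early gene each way and a median of 0.13. That total of 9 was 5 without the third GFP- array at 2 dpf and 4 without the first GFP- array at 6 dpf. An F test over the 4 ages called 24 members in GFP+ cells, beside 29.8% of all genes, and 8 in GFP- cells, beside 20.5%. The latter count was 5 without the third GFP- array at 2 dpf. Of the genes called between 2 and 6 dpf, 24 in GFP+ and 9 in GFP- cells, 5 were shared. Of these, dnajc7, dnajc9 and ier5l fell in both gates, while fosl2 and dnajc5ga fell in GFP+ and rose in GFP- cells. Epidermis markers also fell in GFP+ cells, from a mean score between 1.43 and 1.59 at 2 dpf to between 0.39 and 0.61 at 6 dpf, and the part of these cells in the immediate early scores was not tested. The 3′ minus 5′ difference of GAPDH was 0.75, 0.40 and 0.53 in GFP+ cells at 2 dpf and -0.13, -0.10 and 0.27 at 6 dpf. In GFP- cells it was 0.24, 0.27 and 0.27 at 2 dpf and 0.85, 0.24 and 0.35 at 6 dpf. In GFP+ cells the 3′ score itself went from 1.56, 1.68 and 1.85 at 2 dpf to 0.52, 0.42 and 0.27 at 6 dpf. The 5′ score went from 0.81, 1.28 and 1.32 to 0.65, 0.52 and 0. A difference between such low scores cannot be read as RNA length alone, and the part of RNA quality was not tested.

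In GFP+ cells hsp70.3 fell, its change from 2 to 6 dpf being -1.97 ± 0.44 (adjusted p = 0.0025), with the array scores given above. The change was -1.54 ± 0.32 for junba (adjusted p = 0.00116), -1.33 ± 0.30 for junbb (adjusted p = 0.00287) and -1.24 ± 0.36 for btg1 (adjusted p = 0.0165). The call of btg1 was lost in 3 of the alternatives tried. Among the others that fell, the change was -1.18 ± 0.35 for jun, -1.21 ± 0.17 for ier5l, -0.97 ± 0.25 for ier2a and -0.96 ± 0.31 for atf3. It was -0.88 ± 0.23 for btg2, -0.86 ± 0.22 for gadd45ba, -0.83 ± 0.22 for fosl2 and -0.60 ± 0.11 for btg3. On the arrays, GFP+ scores at 6 dpf were below all those at 2 dpf for jun, junba, junbb, btg1, btg2, ier5l, ier2a, atf3 and fosl2. The brightest probe set of fosab gave -0.41 ± 0.20 and was not called, while its other 3 probe sets gave -0.85, -1.7 and -1.32 and were.

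The immediate early gene that rose in GFP+ cells was gadd45ab. It scored 0.88, 0.57 and 0.62 (2 dpf), 1.03, 0.78 and 1.19 (3 dpf), 1.35, 1.58 and 1.25 (4 dpf), 1.42, 1.78 and 1.32 (6 dpf) in GFP+ cells and 0.74, 0.51 and 0.95 (2 dpf), 0.89, 0.61 and 0.62 (3 dpf), 0.80, 1.95 and 1.22 (4 dpf), 1.0, 1.25 and 1.3 (6 dpf) in GFP- cells. The 6 dpf arrays were above the 2 dpf arrays in both gates, GFP+ was above GFP- at 6 dpf, and the change was 0.82 ± 0.21 in GFP+ (adjusted p = 0.0066) and 0.45 ± 0.21 in GFP- cells, where it was not called (adjusted p = 0.154). Among the chaperone genes dnajc19 rose in GFP+ cells by 0.97 ± 0.25, hspb8 by 0.81 ± 0.22, dnaja3a by 0.40 ± 0.13 and dnajc4 by 0.35 ± 0.10. The mitochondrial DnaJ dnaja3a scored 0.89, 0.43 and 0.71 (2 dpf), 0.57, 0.52 and 0.65 (3 dpf), 0.95, 0.47 and 0.96 (4 dpf), 1.24, 0.82 and 1.17 (6 dpf) in GFP+ and 0.26, 0.18 and 0.13 (2 dpf), 0.06, 0.28 and 0.23 (3 dpf), 0.17, 0.39 and 0.30 (4 dpf), 0.38, 0.28 and 0.37 (6 dpf) in GFP- cells, so the gates were apart within each age. The rise of dnaja3a was lost in 7 of 16 alternatives. That of dnajc19 was lost without the first GFP+ array at 2 dpf, and that of hspb8 without the second GFP+ array at 2 dpf or the third at 6 dpf.

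In GFP- cells hspa4l rose by 1.78 ± 0.14 (adjusted p = 5.10e-08), fosl2 by 0.97 ± 0.22 (adjusted p = 0.00322) and dnajc5ga by 0.37 ± 0.12 (adjusted p = 0.0368). The rise of fosl2 was not called with the mean of its probe sets, nor that of dnajc5ga in 6 alternatives. The histone chaperone dnajc9, which acts with DNA replication, fell in both gates. It scored 1.14, 1.45 and 1.49 (2 dpf), 1.37, 0.86 and 1.32 (3 dpf), 1.19, 0.75 and 1.08 (4 dpf), 0.59, 0.36 and -0.21 (6 dpf) in GFP+ cells and 1.35, 1.42 and 1.6 (2 dpf), 1.07, 0.93 and 0.84 (3 dpf), 0.88, 0.30 and 1.1 (4 dpf), 0.24, 0.66 and 0.36 (6 dpf) in GFP- cells. In both gates every 6 dpf array was below every 2 dpf array, and the change was -1.11 ± 0.21 in GFP+ and -1.04 ± 0.21 in GFP- cells. Smaller drops in GFP- cells were those of hspb1, -0.81 ± 0.23, and ier5l, -0.62 ± 0.17, lost in 4 and 2 alternatives, of hspa8, -0.29 ± 0.10, and of dnajc7, -0.24 ± 0.07. The muscle marker values given with hsp90aa1.1 stand beside that of hspb1 too, and their part was not tested.

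The difference between gates was then compared between 6 and 2 dpf, which tests whether age acted unequally in the gates. This called 1 gene with a more positive difference at 6 dpf, hsp90aa1.1, and 3 with a more negative one, fosl2, hspa4l and dnajc5ga, beside 4.39% and 5.41% of all genes. The shift was -1.8 ± 0.31 for fosl2 (adjusted p = 9.71e-04), -1.76 ± 0.20 for hspa4l (adjusted p = 3.67e-05), -1.05 ± 0.17 for dnajc5ga (adjusted p = 6.86e-04) and 0.84 ± 0.23 for hsp90aa1.1 (adjusted p = 0.0259). The call of hsp90aa1.1 was lost in 7 of 22 alternatives, and its low scores from 4 dpf on limit the size of its shift. An F test over the 4 ages called 3 members, beside 8.04% of all genes. Without the second GFP+ array at 4 dpf it called 12, with no share of all genes to set beside them. The other 2 probe sets of fosl2 gave -0.30 and -0.84 and were not called. The median shift was -0.59 over the immediate early genes, 0.06 over the chaperone genes and 0.06 over all genes, with 0 immediate early genes called higher and 1 lower. These calls are those of the brightest probe sets. A dimmer one of fosab was called with -1.76 (adjusted p = 0.0124) and that of btg2 with -1.91 (adjusted p = 0.0115). The other dimmer probe sets of fosab gave -0.94 and -1.17 and were not called.

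GFP+ and GFP- cells were sorted from the same replicate. The mean deviations of the immediate early genes from their groups had the same sign in 10 of 12 such pairs. These signs are not independent, since the deviations of 3 replicates sum to 0 within each group. The largest were those of the second replicate at 4 dpf, 0.41 in GFP+ and 0.38 in GFP- cells. At 2 dpf they lay between -0.06 and 0.06, and the pairs of unlike sign were at 6 dpf. With a fixed term for the pair, added after this was seen, 2 members had a more positive and 11 a more negative difference at 6 dpf than at 2 dpf, beside 4.41% and 6.38% of all genes. The F test then called 12, with no share of all genes to set beside them. Of the 11, 9 were immediate early genes. The shift was -1.36 ± 0.29 for jun (adjusted p = 0.0117), -1.34 ± 0.18 for junba (adjusted p = 8.48e-04), -1.17 ± 0.28 for junbb (adjusted p = 0.0217) and -1.5 ± 0.35 for btg1 (adjusted p = 0.0181). It was -1.11 ± 0.26 for ier2a, -0.99 ± 0.16 for gadd45ba, -0.60 ± 0.17 for fosab and -0.59 ± 0.13 for ier5l, all called. Between gates the term also called junba at 4 dpf, with -0.59 ± 0.13, hspb1 at 2 dpf, with -0.41 ± 0.13, and hsp90aa1.2 at 3 dpf, with -0.74 ± 0.21, but no longer dnaja2a, dnajc10 and hspa4a at 2 dpf or dnaja3b and hspa4a at 4 dpf. The shift of hsp70.3, -1.58 ± 0.46, was not called (adjusted p = 0.0507). Without the second replicate of 4 dpf in both gates, and without the pair term, 3 members were called higher and 13 lower, 10 of the latter immediate early genes, beside 5.97% and 7.35% of all genes. Without the third GFP+ array at 6 dpf alone, and with no pair term, 2 immediate early genes were called lower, fosl2 and ier5l, beside 5.69% of all genes. Without it and the 4 dpf replicate together 11 were, beside 8.38%. The number of immediate early genes whose gate difference shifted thus ranged from 1 to 11 with the treatment of the pairs and of these arrays.

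**Figure D5:**
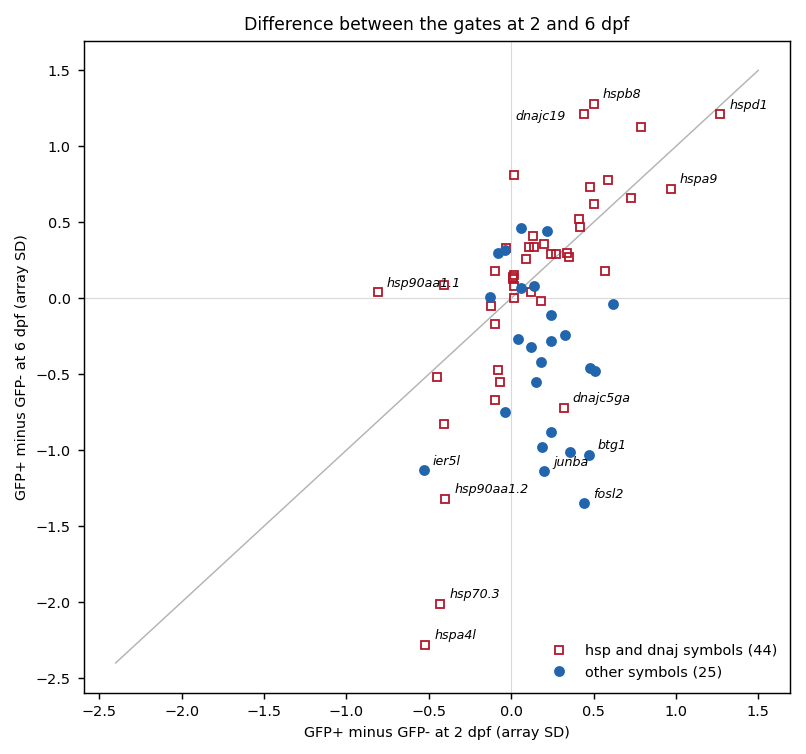
GFP+ minus GFP- difference at 6 dpf (y axis) against that at 2 dpf (x axis) for each of the 69 genes, in array SD, coloured by chaperone or immediate early symbol. Most immediate early genes lie to the right of 0 at 2 dpf and below 0 at 6 dpf, while hspd1, hspe1 and hspa9 lie near the diagonal.

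At 4 dpf the second replicate was described separately after its scores had been seen. Of the 25 immediate early genes, 19 had their highest 4 dpf score on it in both gates, a share of 76%, against 13.6% of the chaperone genes and 18.5% of all genes. Its excess over the mean of the other replicates had a median of 0.69 in GFP+ and 0.57 in GFP- cells over the 25 genes. In a list of 45 other immediate early genes, 29 (64.4%) did the same, and the excess of nr4a1, an orphan receptor induced by many signals, was 1.71 in GFP+ and 1.06 in GFP- cells. Over the 44 chaperone genes the median excess was -0.01 in both gates, and single genes went both ways. The excess of hsp70.3 was 1.23 in GFP+ and -0.26 in GFP- cells, that of dnajb1b 0.76 and 0.13, and that of hsp90aa1.2 0.70 and 0.05. That of hspb8 was -1.13 in GFP+ and 0.39 in GFP- cells, and that of hspd1 -0.41 and -0.43. The 3′ minus 5′ difference of GAPDH was 0.69 on the GFP+ array against 0.05 and 0.03 on the others of that group, and 0.41 on the GFP- array against 0.45 and 0.20. Some tissue marker scores of this replicate also stood apart, and others did not. Its mean exocrine pancreas score was 2.26 against 3.42 and 3.36 in GFP+, and 0.40 against 1.93 and 2.67 in GFP- cells. Its mean epidermis score was 1.29 against 0.59 and 0.64 in GFP+, and 2.2 against 2.0 and 1.92 in GFP- cells. The mean intestine score was 2.96 against 2.0 and 2.29 in GFP+, and 1.56 against 0.48 and 1.53 in GFP- cells, where it was close to the third replicate. The mean leukocyte score was 0.13 against 0.16 and 0.31 in GFP+, and 0.8 against 0.67 and 0.93 in GFP- cells. The parts of RNA quality and of tissue make-up in the immediate early scores were not tested.

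The other genes of the pathways were counted from lists chosen with earlier results known. Of 16 ER chaperone and unfolded protein response genes, 13 were higher in GFP+ and 1 lower over the 4 ages, beside 40.6% and 20.9% of all genes, with a median of 0.48. A further list held genes of the cytosolic chaperonin CCT, which folds actin and tubulin, together with prefoldin genes and trap1. Of its 14 measured genes, 12 were higher and 0 lower, with a median of 0.27. In GFP- cells 9 of them fell with age, beside 12.2% of all genes. These counts are not those of CCT alone. Of 24 co-chaperones 11 were higher, a share near the 40.6% of all genes, and 2 lower, among them grpel1, the exchange factor of mortalin, at 0.70, and the myosin chaperone unc45b at -0.32. The heat shock factors measured were hsf1, hsf2 and hsf5, and of these hsf5 was called between gates, at 0.14, while hsf2 rose with age in GFP+ cells by 0.56 and in GFP- cells by 0.58. No call was made for hsf1, the factor that induces heat shock genes.

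Of the 45 other immediate early genes, 13 were higher and 15 lower in GFP+ cells over the 4 ages, beside 40.6% and 20.9% of all genes. At 2 dpf 10 were higher and 2 lower, beside 12.3% and 7.71%, and at 6 dpf 5 and 13, beside 25.8% and 15.6%. From 2 to 6 dpf 6 rose and 11 fell in GFP+ cells, beside 10.5% and 16.2%, and 6 rose and 3 fell in GFP- cells, beside 9.11% and 12.2%. The gate difference shifted down between 2 and 6 dpf for 5 of them and up for 0, beside 5.41% and 4.39% of all genes, with -1.74 ± 0.49 for nr4a1, -1.52 ± 0.35 for the G protein regulator rgs2, -1.04 ± 0.32 for the neuronal npas4a, -0.73 ± 0.20 for the mRNA decay factor zfp36l1a and -0.53 ± 0.16 for tob1a, a relative of btg1. Of 13 upstream genes of the ERK and serum response factor pathway 7 were higher and 2 lower over the 4 ages, and of 10 p53 target genes 3 and 1, again beside 40.6% and 20.9% of all genes. By the same comparison and beside the same shares of all genes, 0 of 18 skeletal muscle genes were higher and 10 lower, 2 of 13 leukocyte genes higher and 8 lower, 1 of 10 erythrocyte genes higher and 4 lower, and 1 of 5 lens genes higher and 0 lower.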

How the data were processed

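Total RNA of sorted cells was amplified, labelled and hybridized to Affymetrix zebrafish arrays, 24 in all, with 3 in each of 8 groups taken from the sample titles. The deposited table holds a score for every probe set on every array. The authors used RMA, per the submitters' processing notes, which gives values on a log scale. Each array was found to have a median of 0 and an SD of 1, while the step that scaled it and the log base were not given in the sources used here. Arrays have no read depth, so their number limits the precision.

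Members were matched by the annotated symbol of probe sets with 1 gene (10795 of 15502 tested; 135 had several symbols and 4572 none), and the 115 controls were left out. The members and gene lists were chosen with earlier results of these data known. A model of 8 group means was fitted to all tested probe sets with limma 3.58.1 in R 4.3.3, two-sided, with empirical Bayes moderation (prior df 3.59) and Benjamini-Hochberg adjustment within each comparison at 0.05. An exact permutation of 3 arrays against 3 cannot give a p under 0.1. The script was tested on simulated data: at 6 dpf it recovered 54% of changed probe sets at a true gate difference of 0.5 and 86% at 1, and for the shift of the gate difference between 2 and 6 dpf 22% and 66%. There 50 of 15502 probe sets were changed at each size, in GFP+ cells at 6 dpf alone, with independent normal noise. The data have many more calls and have arrays that stand apart, so these rates may not hold for them.

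Values on every array were given for the 6 called genes with the largest difference each way over the 4 ages, the 4 largest each way in the age comparisons and in the shift of the gate difference, and the brightest gene of each family. Same-numbered GFP+ and GFP- arrays of an age come from 1 replicate, per the series design text. Their residuals correlated between -0.0789 and 0.312 over the 12 pairs (mean 0.0808, against -0.0387 for other pairs), and 8 of 12 correlated best with their own number. The model has no term for the pair, and terms for it were among the alternatives. Others were quantile normalization, array weights, a trended prior, a filter on low scores, averaging the probe sets of a gene, a minimum difference, fits of only the compared arrays, and leaving out each array. No sequences are printed and no promoter motifs were searched.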

Additional observations from a re-analysis of the deposited data

Results flagged for a closer look

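For 4 genes the difference between gates itself differed between 2 and 6 dpf by the interaction contrast of limma. It moved by -1.8 ± 0.31 array SD (SE) for fosl2 (adjusted p = 9.71e-04), by -1.76 ± 0.2 for hspa4l (adjusted p = 3.67e-05), by -1.05 ± 0.17 for dnajc5ga (adjusted p = 6.86e-04) and by 0.84 ± 0.23 for hsp90aa1.1 (adjusted p = 0.0259). For fosl2 and dnajc5ga GFP+ was above GFP- on all 3 arrays at 2 dpf and below on all 3 at 6 dpf. For hspa4l the level rose in GFP- cells, and for hsp90aa1.1 it fell there to low scores, between -0.57 and -0.22 in both gates at 4 and 6 dpf, which limit the size of its shift. The other 2 probe sets of fosl2 were not called.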

How the results depend on the processing

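Of 31 gene results tried under the alternatives, 22 kept their call in all of them, 9 lost it in at least 1 and 0 changed sign. A count below with no share of all genes beside it, here or above, cannot be read as a result about the members. The counts of called members moved by over 1.5 times as follows. With array weights they were 31 for the gate at 3 dpf, 20 for age in GFP- cells, 25 for the shift of the gate difference between 2 and 6 dpf, 24 for its F test, 41 for the F test of age in GFP+ and 23 in GFP- cells. With the filter on low scores, which leaves 49 members tested, the shift was called for 7. Requiring 0.5 array SD left 14 calls over the 4 ages and 10 at 2 dpf. Fits of only the arrays compared gave 13 calls at 4 dpf, 16 for age in GFP- cells and 13 for the shift. With the pair as a random block, whose correlation was 0.00911, no count moved by over 1.5 times. With the replicate pair as a fixed block, added after seeing the data, 13 shifts were called and 12 by F test, and no other count moved so far. Without the second replicate of 4 dpf, also added later, the counts were 15 for age in GFP- cells, 16 for the shift and 15 for its F test. Without it and the third GFP+ array at 6 dpf the counts were 25 at 3 dpf, beside 38.1% of all genes, and 19 for age in GFP- cells, beside 28.7%. That fit gave 19 for the shift, beside 17.9%, and 17 for its F test, beside 15.5%. For the F test of age in GFP- cells it gave 16, beside 28.1%. Leaving out 1 array at a time gave 37 to 44 calls over the 4 ages, 9 to 15 at 2 dpf, 12 to 18 at 3 dpf, 17 to 31 at 4 dpf and 32 to 36 at 6 dpf. It gave 19 to 24 for age in GFP+ cells, 4 to 8 in GFP- cells, 3 to 6 for the shift, 3 to 12 for its F test, 18 to 30 for the F test of age in GFP+ and 5 to 10 in GFP- cells. The cause of these changes in count was not tested.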
